A study of Mus musculus with 8 samples.

Results

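A set of 9 genes was examined, which join the circadian clock to the checkpoints of cell division and to growth control, namely Wee1, Cdkn1a, Myc, Ccnd1, Gadd45a, Gadd45b, Gadd45g, Trp53 and Mdm2. They were taken by symbol from the 55487 genes of the count table, and all 9 of 9 passed the filter on low counts. Among them 5 differed strongly in level between the groups compared. Cyclin D1 (Ccnd1) was 20.2-fold and Gadd45b 24.2-fold lower, Wee1 and Gadd45a were 4.81-fold and 5.43-fold lower, and Cdkn1a, which encodes the CDK inhibitor p21, was 16.4-fold higher in the libraries labelled Bmal1-/-. The transcripts of p53 and of its ubiquitin ligase MDM2 differed little.

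By its labels and methods, the RNA came from the stromal vascular fraction of subcutaneous tumors grown from MC38, a mouse colon cancer cell line, in hosts with both copies of the clock gene Bmal1 (Bmal1+/+, 4 samples) or with neither (Bmal1-/-, 4 samples). The deletion was carried by the whole host and not by the implanted tumor cells, which were marked with GFP and sorted away. Sex, age and time of day of collection are not given in the sources used here. Library totals ranged from 14054825 to 18449143 counts, and a count of 3, taken as the detection floor, was at most 0.213 CPM (counts scaled to a common library size). That floor covers counting error only. Nothing in the labels says whether the 4 samples of a group came from separate animals, so p-values measure the spread between these samples.

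Several facts of the libraries bear on all values below. Counts of Bmal1 itself (Arntl) were higher in the libraries labelled Bmal1-/- (32.6 ± 2.00 CPM, SD, n = 4) than in Bmal1+/+ libraries (1.55 ± 0.814 CPM, SD, n = 4), so the former are called by their label throughout, as labelled replicates 1 to 4. In these labelled libraries 9 of 11 listed clock outputs were called lower and 0 higher, against 16.2% of all genes tested called lower. Counts over a whole gene do not show whether its transcript was intact, and this was not tested. Xist had 844 to 1094.9 CPM in Bmal1+/+ libraries and at most 0.749 CPM in the others, whereas Eif2s3y, Uty, Kdm5d and Ddx3y, all on the Y chromosome, had counts only in those others, so the sex of the animals and the label cannot be told apart. A list of 10 hepatocyte genes led by Alb (serum albumin) summed to 107514 to 117006 CPM in the Bmal1+/+ group and 65811 to 75489 CPM in the other group, with 1 of 10 called lower and 2 higher. The lower sum was that of Alb, since the other 9 genes summed to 43196 to 45134 CPM against 48460 to 62745 CPM. By contrast, 10 fibroblast genes summed to at most 221 CPM in any library, with 5 of the 9 tested called lower and 0 higher. Fap, which defines activated fibroblasts, had at most 7 counts in any library. Hepatocyte genes thus held 6.58% to 11.7% of each library and fibroblast genes at most 0.0221%, which goes against the label of a sorted stromal fraction from a subcutaneous tumor, so the cells behind all values below are uncertain. All 9 macrophage genes and all 7 endothelial genes listed had a lower level in the libraries labelled Bmal1-/-, and 7 and 5 of them were called at adjusted p below 0.05. Their sums were 372 to 470 CPM against 155 to 317 CPM, and 233 to 272 CPM against 158 to 202 CPM. Called at that threshold were 30.0% of the hepatocyte, 55.6% of the fibroblast, 77.8% of the macrophage and 71.4% of the endothelial genes tested. Of all genes tested, 31.1% were called. The part of these cell types in the results was not tested, and in bulk RNA fewer cells of a type and less RNA per cell cannot be told apart.

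As background, cells divide in phases that are held back or released by cyclin-dependent kinases (CDKs) and their brakes. WEE1 places an inhibitory phosphate on CDK1 and delays mitosis, p21 blocks CDKs in G1, cyclin D1 activates CDK4 and CDK6 to start the cycle, and the GADD45 proteins answer stress by binding p21, PCNA and stress kinases. In mouse liver Wee1 is a known target of the BMAL1-CLOCK dimer through E-box elements, and Cdkn1a is known to be repressed by the REV-ERB receptors, which BMAL1 drives. The transcription factor p53 induces Cdkn1a, Gadd45a and Mdm2 after DNA damage, and MDM2 in turn degrades p53. MYC drives growth and ribosome production.

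Promoter windows of 6 of the 9 genes were in the RefSeq-based table used here (GRCm38.p6). Wee1, Ccnd1 and Myc were not among them. Each window was searched in the 250 bases before the transcription start, on both strands, for the E-box CACGTG bound by BMAL1-CLOCK, the related CACGTT, the D-box TTANGTAA, the REV-ERB and ROR core TAGGTCA and the p53 half-site consensus. The E-box was found in Gadd45b and Gadd45g only. Of 32851 such windows in the genome, 6.02% held it. The p53 half-site, held by 7.13% of all windows, was found in Gadd45a, Mdm2, Trp53 and at 2 places in the upstream one of 2 windows of Cdkn1a. The match in Gadd45a, 40 to 31 bases before the RefSeq start, lies inside the annotated gene. The other 3 motifs, held by 3.85%, 2.06% and 2.23% of all windows, had no match among these genes, which says only that these letters are not in these windows. Here 4 windows are shown, the pair that shares an E-box although the transcripts differed in opposite directions, and the pair that shares a p53 half-site although only one transcript differed strongly. They run 5′ to 3′ on the gene's strand, end where annotated exons begin, and carry the matches in capitals, the E-box in the first pair and the p53 half-sites in the second.
Gadd45b (chr10:80929841-80930072, plus strand): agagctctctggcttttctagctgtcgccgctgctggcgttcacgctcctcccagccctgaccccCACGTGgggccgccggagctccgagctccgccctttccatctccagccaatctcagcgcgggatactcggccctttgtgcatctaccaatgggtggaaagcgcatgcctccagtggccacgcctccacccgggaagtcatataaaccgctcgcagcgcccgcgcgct
Gadd45g (chr13:51846425-51846674, plus strand): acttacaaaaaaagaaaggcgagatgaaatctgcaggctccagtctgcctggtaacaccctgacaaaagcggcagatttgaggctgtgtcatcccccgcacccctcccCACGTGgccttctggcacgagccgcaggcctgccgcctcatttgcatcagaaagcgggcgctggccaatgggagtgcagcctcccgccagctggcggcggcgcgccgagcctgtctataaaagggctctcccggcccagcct
Cdkn1a (chr17:29090729-29090975, plus strand): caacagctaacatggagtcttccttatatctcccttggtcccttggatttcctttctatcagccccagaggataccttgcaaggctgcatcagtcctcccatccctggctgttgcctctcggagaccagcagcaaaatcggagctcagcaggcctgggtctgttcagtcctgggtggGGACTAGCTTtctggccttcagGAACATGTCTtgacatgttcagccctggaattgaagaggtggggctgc
Mdm2 (chr10:117710759-117711008, minus strand): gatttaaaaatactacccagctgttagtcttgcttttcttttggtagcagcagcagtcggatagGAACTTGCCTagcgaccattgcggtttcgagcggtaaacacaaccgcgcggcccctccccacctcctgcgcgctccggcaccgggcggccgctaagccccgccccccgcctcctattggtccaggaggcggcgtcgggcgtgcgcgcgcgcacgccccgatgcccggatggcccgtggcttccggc
In Gadd45b the E-box began 185 bases before the RefSeq start, and in Gadd45g 142 bases before it. In Cdkn1a the half-sites began 73 and 51 bases before the RefSeq start. The windows shown for Gadd45b and Cdkn1a leave out the last 18 and 3 bases before that start, which lie inside the annotated genes. A match is a description of the sequence and not evidence of binding.

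**Figure D1:**
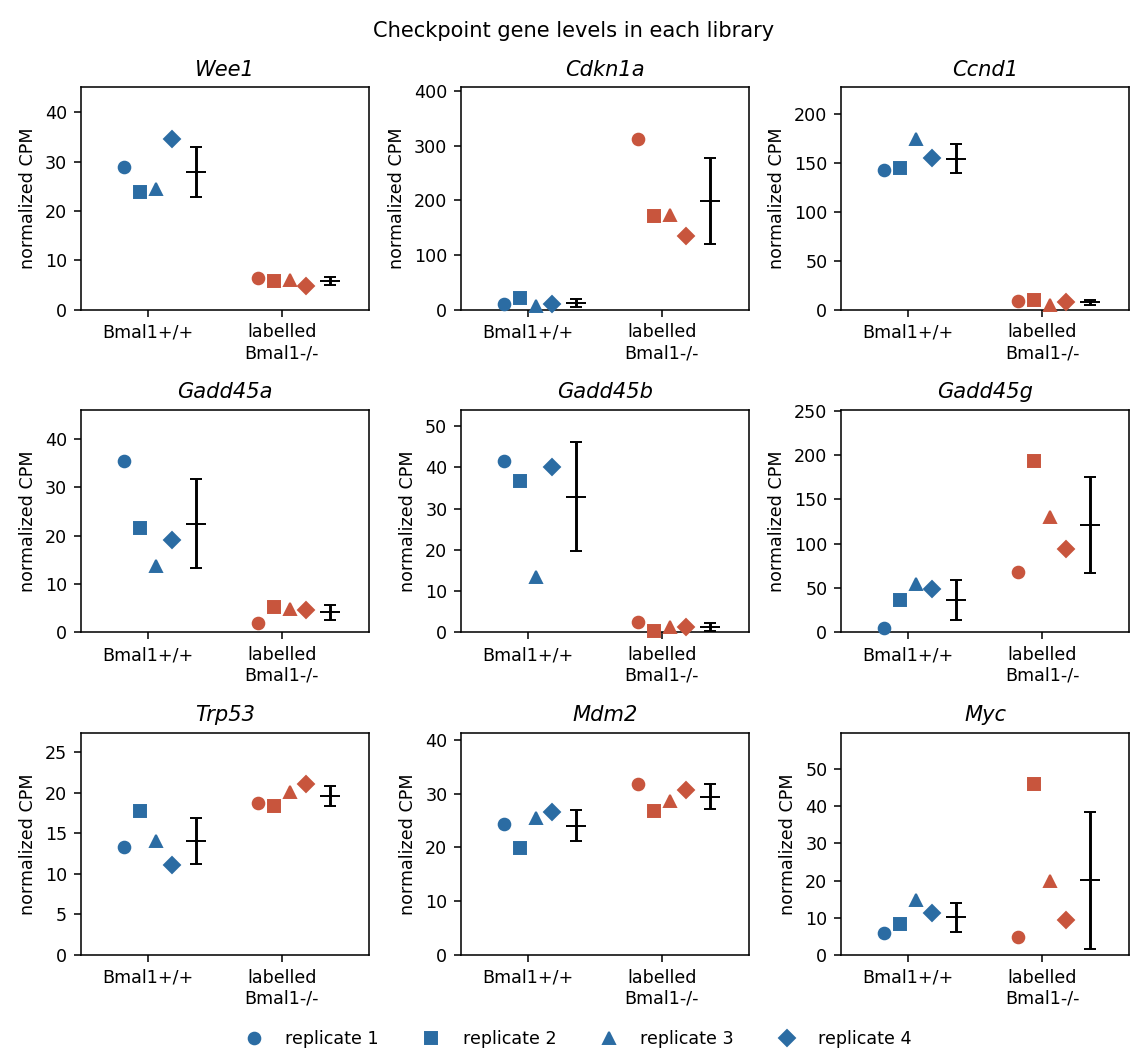
Normalized CPM (vertical axes, linear from 0) of the 9 genes in each of the 8 libraries, with blue points for Bmal1+/+ and red points for libraries labelled Bmal1-/-, one symbol per replicate number, and black bars for mean ± SD. Wee1, Ccnd1, Gadd45a and Gadd45b were lower and Cdkn1a was higher in every library labelled Bmal1-/-, while Myc overlapped between the groups.

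Whether the genes followed the label was asked with edgeR's quasi-likelihood test, run on all 14353 genes that passed the filter and adjusted after Benjamini and Hochberg. Of the 9, 4 were called lower and 3 called higher at adjusted p below 0.05, where 31.1% of all genes tested had such a p (16.2% lower and 14.9% higher). The groups did not overlap for 8 of the 9 genes, against 33.4% of all genes tested. By size of change, 5 of the 9 were called with an absolute log2 fold change above 2, which 3.89% of all genes tested were, and 3 with one above 4, which 1.00% were. The 9 genes were chosen with earlier results of these data known, so these shares are no test of the set.

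The mitotic brake Wee1 (ENSMUSG00000031016, chr7:110122046-110143286) had 28.9, 23.8, 24.5 and 34.7 normalized CPM in Bmal1+/+ replicates 1 to 4. In the libraries labelled Bmal1-/- it had 6.49, 5.89, 6.12 and 4.75 CPM. All 4 labelled libraries lay below the lowest Bmal1+/+ library, and both groups were tight. Wee1 thus fell by 2.27 in log2 units (standard error 0.16, 95% interval -2.62 to -1.91, adjusted p = 1.37e-05, edgeR's quasi-likelihood test), or 4.81-fold. Set beside 11 E-box outputs of the clock, of which 9 were called lower and 0 higher (median log2 fold change -3.58, against 0.02 over all genes tested), Wee1 stood in the middle, with 6 outputs at a lower and 5 at a higher fold change. The lowest was Dbp, a clock-driven bZIP factor, at -4.32, and the highest was its relative Hlf, at -0.15 with adjusted p = 0.641. Ciart, which represses BMAL1-CLOCK, fell by 4.03. Of these 11 outputs 81.8% were called, against 31.1% of all genes tested. The list was chosen with earlier results of these data known, so that share is no test of it. An antisense gene, 1600010M07Rik, overlaps Wee1 without sharing exons and had at most 0.346 CPM.

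The genes around WEE1 in mitotic entry ranged from 0 counts for Wee2 to 42.3 ± 3.41 CPM (SD, n = 4) in Bmal1+/+ libraries for Fbxw11, which encodes a ubiquitin ligase subunit. Of 16 listed genes 11 passed the filter, and 1 of them, the S and M phase cyclin gene Ccna2, was called lower and 0 higher (before adjustment 1 and 1, with DESeq2 0 and 0). This was 9.09% of those tested, against 31.1% of all genes tested. Ccna2 had 1.53 ± 0.092 against 0.85 ± 0.268 CPM (SD, n = 4; log2 fold change -0.83, adjusted p = 0.0381, edgeR's quasi-likelihood test). That call was lost in 10 of the 17 alternative settings. The 16 genes summed to 73.1 to 84.6 CPM in Bmal1+/+ libraries against 66.2 to 84.8 CPM in the others, so the groups overlapped in a sum that was mostly Fbxw11, Btrc and Cdk2. Chek1, Cdc25b and Pkmyt1, a paralog of Wee1, had log2 fold changes of -1.16, -1.06 and -0.92 with adjusted p of 0.126, 0.134 and 0.173 from the same test. Of 7 tested markers of dividing cells 3 were called lower and 0 higher, or 42.9% against 31.1% of all genes tested. Mcm2 and Birc5 had log2 fold changes of 0.10 and 0.26. The 8 listed summed to 42.0 to 52.7 CPM in Bmal1+/+ libraries against 28.7 to 34.1 CPM in the others. Most of that sum was Pcna (29.7 ± 2.31 against 20.1 ± 2.27 CPM, SD, n = 4). The part of dividing cells in the difference of Wee1 was not tested.

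The CDK inhibitor gene Cdkn1a (ENSMUSG00000023067, chr17:29090976-29100727) moved the other way and by more. It had 9.99, 21.9, 6.11 and 10.2 CPM in Bmal1+/+ replicates 1 to 4 and 313, 172, 173 and 135 CPM in the libraries labelled Bmal1-/-. The lowest labelled library was above the highest Bmal1+/+ library, replicate 2, by several-fold, and replicate 1 was the highest of its group. The log2 fold change was 4.04 (standard error 0.41, 95% interval 3.11 to 4.96, adjusted p = 0.000119, edgeR's quasi-likelihood test), which ranked 63 from the top among the 14353 genes tested. A gene model on the opposite strand, AC167363.2, shares exon sequence with Cdkn1a and had 0.269 to 0.448 CPM in Bmal1+/+ libraries against 1.02 to 2.75 CPM in the others. Whether the counting used the strand is not stated.

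Of 7 other CDK inhibitors listed, 4 passed the filter, and of these 2 were called lower and 0 higher, or 50.0% against 31.1% of all genes tested. Cdkn2c (p18, an inhibitor of CDK4 and CDK6) fell from 7.11 ± 0.647 to 3.13 ± 0.753 CPM (SD, n = 4), by 1.19 on the log2 scale. Cdkn1c (p57) fell from 3.80 ± 0.139 to 2.03 ± 0.535 CPM (SD, n = 4), by 0.90. Cdkn1b (p27), a close relative of p21, had a log2 fold change of 0.15 and Cdkn2d (p19) one of 0.51 (adjusted p = 0.649 and 0.264, edgeR's quasi-likelihood test). Of 5 genes repressed by REV-ERB, 5 were called higher, against 14.9% of all genes tested, with a median log2 fold change of 2.33. Arntl, 1 of the 5, is the gene that the label gives as deleted. The 5 genes were chosen with earlier results of these data known, so their share is no test of the list. For these lists of CDK inhibitors and REV-ERB targets, 0 genes passed p below 0.05 before adjustment in the other direction, and DESeq2 called 0 as well. Cdkn1a at 4.04 lay between Cry1, a clock repressor, at 2.33, and Arntl at 4.38 in that list, above which stood Npas2, with between 2 and 4 counts in Bmal1+/+ libraries and between 460 and 610 in the others.

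Cdkn1a is also the best known target of p53, so the p53 axis was laid beside it. Trp53 (ENSMUSG00000059552, chr11:69580359-69591873), which encodes p53, had 13.3, 17.8, 14.1 and 11.1 CPM in Bmal1+/+ replicates 1 to 4 and 18.8, 18.4, 20.1 and 21.1 CPM in the libraries labelled Bmal1-/-. The groups were separate but close, with 17.8 CPM as the highest Bmal1+/+ value and 18.4 CPM as the lowest labelled one. Its log2 fold change was 0.48 (standard error 0.14, 95% interval 0.15 to 0.80, adjusted p = 0.0322, edgeR's quasi-likelihood test), and the call was lost when any library other than Bmal1+/+ replicate 2 was left out, with adjusted p between 0.0501 and 0.0791. Mdm2 (ENSMUSG00000020184, chr10:117688875-117710758) had 24.3, 19.9, 25.5 and 26.5 CPM in Bmal1+/+ libraries and 31.8, 26.7, 28.6 and 30.7 CPM in the libraries labelled Bmal1-/-. It was not called, with a log2 fold change of 0.29 (95% interval 0.03 to 0.55, adjusted p = 0.083 from the same test). That interval, which is not adjusted for the number of genes, reaches no further than 0.55, so a change of the size of Cdkn1a lay outside it.

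Targets of p53 other than these genes showed no common direction. Of 29 listed, 28 passed the filter, and 5 were called lower and 3 higher, or 28.6% against 31.1% of all genes tested. Their median log2 fold change was 0.15, and Cdkn1a lay above 28 of 28. The lowest were Plk3, a stress kinase gene, at -1.52 (230 ± 48.6 against 80.3 ± 32.6 CPM, SD, n = 4) and Pmaip1, which encodes the death protein NOXA, at -1.25. Pmaip1 rests on few counts, 18 to 28 in Bmal1+/+ libraries and 7 to 11 in the others. The highest of those called were Bax, also a death gene, at 0.69 (13.5 ± 1.04 against 21.8 ± 3.55 CPM, SD, n = 4) and the nuclease gene Aen at 0.53. Ddit4, an inhibitor of mTORC1, had the highest fold change of all at 1.48 but spread from 5.3 to 54.2 CPM and from 19.5 to 170 CPM within the groups (adjusted p = 0.175, edgeR's quasi-likelihood test). Among 17 tested regulators of p53, 0 were called lower and 2 higher (before adjustment 4 had p below 0.05, 0 of them lower, and DESeq2 also called 0 lower), the ribosomal protein genes Rpl11 at 1.15 and Rpl5 at 0.45, both of whose proteins bind MDM2. That is 11.8% of these regulators against 31.1% of all genes tested. Rpl5 lost its call in 8 of the 17 alternative settings.

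**Figure D2:**
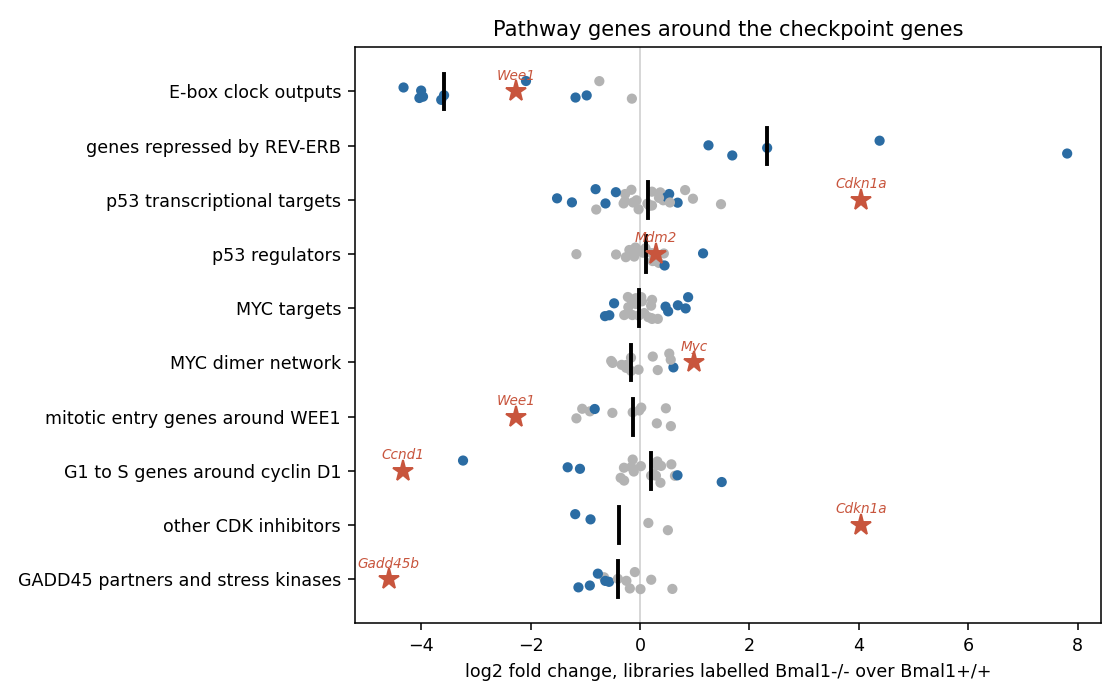
Log2 fold change (horizontal axis) of each tested gene in 10 pathway lists, blue where the adjusted p was below 0.05 and grey otherwise, with black bars for list medians and red stars for the checkpoint gene nearest in function. Cdkn1a at 4.04 lies above all tested p53 targets, whose median is 0.15. Wee1 at -2.27 lies within the E-box outputs, which run widely from -4.32 to -0.15. What drives either gene was not tested.

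Ccnd1 (ENSMUSG00000070348, chr7:144929931-144939925), the cyclin that opens the cycle, was the highest of the 9 per length in Bmal1+/+ libraries. It had 143, 145, 175 and 155 CPM in Bmal1+/+ replicates 1 to 4, against 8.43, 9.83, 4.48 and 7.73 CPM in the libraries labelled Bmal1-/-. The 2 groups were far apart, with no library between 9.83 and 143 CPM. Ccnd1 fell by 4.34 in log2 units (standard error 0.22, 95% interval -4.83 to -3.84, adjusted p = 1.81e-06, edgeR's quasi-likelihood test), or 20.2-fold. This ranked 69 from the bottom among all genes tested. The gene LTO1 on the opposite strand shares exon sequence with Ccnd1 and had between 2.98 and 13.4 CPM over the 8 libraries, a level like that of Ccnd1 in the libraries labelled Bmal1-/-.

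Among 21 tested genes of the G1 to S step around cyclin D1, 3 were called lower and 2 higher, or 23.8% against 31.1% of all genes tested, with a median log2 fold change of 0.20. Ccnd2, a second D-type cyclin, fell from 12.3 ± 0.802 to 4.91 ± 1.12 CPM (SD, n = 4), by 1.32 on the log2 scale. Ccnd3, the other one, spread from 7.76 to 32.8 CPM over the 8 libraries and had a log2 fold change of 0.02 (adjusted p = 0.983, edgeR's quasi-likelihood test). Cdk6, which D-type cyclins activate, rose by 0.69 on the log2 scale from 25.6 ± 5.13 to 41.1 ± 7.53 CPM (SD, n = 4), and its sister kinase gene Cdk4 had 0.20 (adjusted p = 0.404 from the same test). The repressor E2f7 was lower, with 12 to 26 counts in Bmal1+/+ libraries and at most 4 in the others, and E2f2 was higher, with 6 to 14 counts and 15 to 31 counts in the same order, so both rest on few counts.

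**Figure D3:**
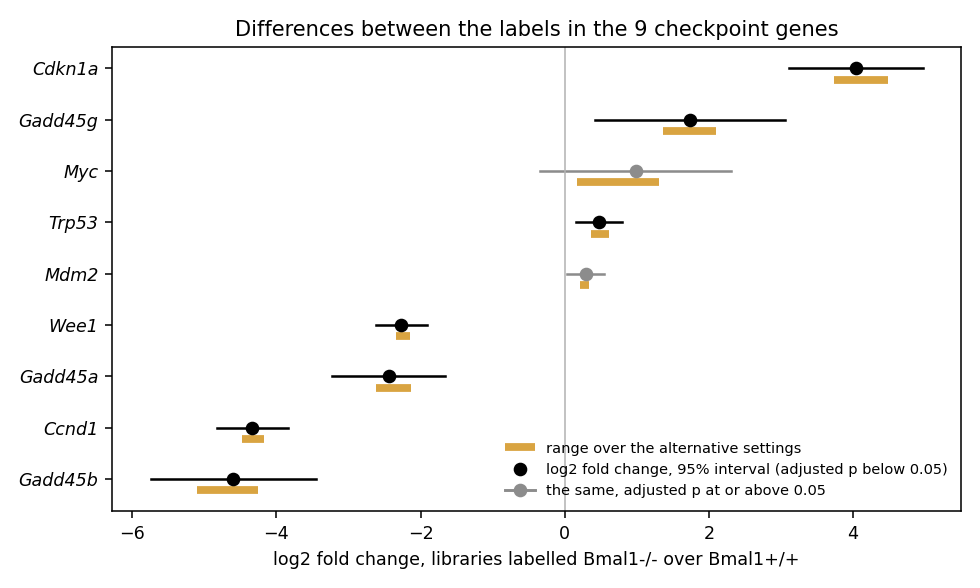
Log2 fold change (horizontal axis) of the 9 genes with 95% intervals, black where the adjusted p was below 0.05 and grey otherwise, above an orange bar that spans the 17 alternative settings (16 for Gadd45b). Wee1, Cdkn1a, Ccnd1, Gadd45a and Gadd45b lie beyond 2 in either direction under every setting that gave a value, and the bar of Myc runs from 0.17 to 1.31.

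The GADD45 family divided. Gadd45a (ENSMUSG00000036390, chr6:67035096-67037457), the member best known as a p53 target, had 35.4, 21.6, 13.8 and 19.1 CPM in Bmal1+/+ replicates 1 to 4 and 1.94, 5.19, 4.84 and 4.61 CPM in the libraries labelled Bmal1-/-. No labelled library reached the lowest Bmal1+/+ library, and replicate 1 was the lowest of its group. Gadd45a fell by 2.44 in log2 units (standard error 0.35, adjusted p = 0.000832, edgeR's quasi-likelihood test), or 5.43-fold. A non-coding gene on the opposite strand with shared exon sequence, E230016M11Rik, had at most 2.15 CPM.

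Gadd45b (ENSMUSG00000015312, chr10:80930073-80932204), which is induced by growth and inflammatory signals, had 41.5, 36.6, 13.4 and 40.1 CPM in Bmal1+/+ replicates 1 to 4. In the libraries labelled Bmal1-/- it had 2.50, 0.277, 1.21 and 1.36 CPM, from 40, 4, 17 and 20 counts. Replicate 3 was low among the Bmal1+/+ libraries but still above all labelled libraries. Gadd45b fell by 4.60 in log2 units (standard error 0.51, 95% interval -5.74 to -3.45, adjusted p = 0.000192, edgeR's quasi-likelihood test), or 24.2-fold, the lowest fold change of the 9 genes in this fit. The count of 4 lies just above the detection floor of 3, and without that library, replicate 2, the log2 fold change was -4.26.

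Gadd45g (ENSMUSG00000021453, chr13:51846678-51848468) went the other way. It had 4.82, 36.7, 55.1 and 48.6 CPM in Bmal1+/+ replicates 1 to 4 and 67.6, 193, 130 and 93.7 CPM in the libraries labelled Bmal1-/-. The groups did not overlap, but Bmal1+/+ replicate 1 was far below the rest of its group. The log2 fold change was 1.74 (standard error 0.59, 95% interval 0.42 to 3.05, adjusted p = 0.0483, edgeR's quasi-likelihood test), close to the threshold. It was lost in 6 of the 8 fits that left out a library, with adjusted p up to 0.12 without labelled replicate 2, and held without Bmal1+/+ replicate 1 (adjusted p = 0.0183) and without labelled replicate 1 (adjusted p = 0.0445).

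Ratios within a library, which depend little on the scaling between libraries, were compared for the 3 pairs of the family with a two-sided exact permutation test on log2 ratios of CPM plus 0.5. The smallest p that 4 against 4 allows is 0.0286. Gadd45g to Gadd45b had a mean log2 ratio of -0.18 ± 2.07 (SD, n = 4) in the Bmal1+/+ group against 6.10 ± 1.44 (SD, n = 4) in the other group, and the difference of 6.27 had an exact p of 0.0286 (0.0429 adjusted over the 3 pairs). For Gadd45g to Gadd45a the difference was 4.36, with the same exact p and adjusted p. Gadd45g alone was higher, and Gadd45a and Gadd45b alone lower, without overlap of the groups. Ratios with Gadd45g on top therefore had to separate the groups, and their exact p had to be the smallest allowed. It adds no evidence to the values of the single genes. Gadd45b to Gadd45a differed by -1.92 (exact p = 0.0857, also after adjustment), not larger than the spread between libraries by this test. Bmal1+/+ replicate 1 was set apart here, with a Gadd45g to Gadd45b log2 ratio of -2.98 against 0.00, 2.00 and 0.27 in the other Bmal1+/+ replicates.

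Per length, Gadd45g took between 95.9% and 98.7% of the family's summed FPKM (fragments scaled to transcript length and library total) in the libraries labelled Bmal1-/-. In Bmal1+/+ libraries it took 8.93%, 48.6%, 76.5% and 54.5%. The summed FPKM itself was between 28.1 and 44.8 in Bmal1+/+ libraries and between 37.4 and 104 in the others, so the groups overlapped in the total but not in the make-up.

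**Figure D4:**
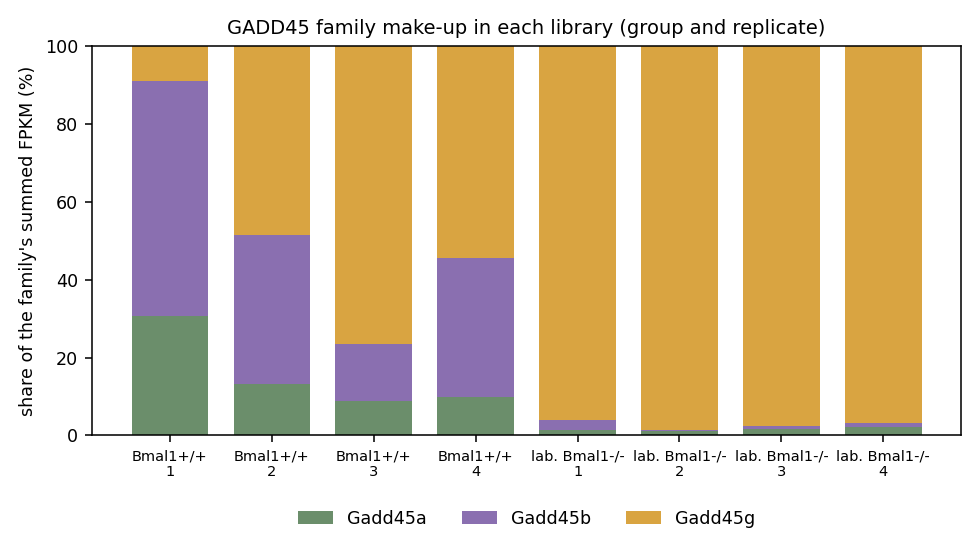
Share of Gadd45a, Gadd45b and Gadd45g in the summed FPKM of the family (vertical axis, percent) in each of the 8 libraries, labelled by group and replicate. Gadd45g makes up at least 95.9% in each library labelled Bmal1-/- and between 8.93% and 76.5% in the Bmal1+/+ libraries.

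Of 13 tested partners and stress kinases around GADD45, 5 were called lower and 0 higher, with 6 and 0 before adjustment and 5 and 0 with DESeq2, or 38.5% against 31.1% of all genes tested, with a median log2 fold change of -0.40. Map2k3, which activates p38, fell from 84.6 ± 3.85 to 44.8 ± 9.43 CPM (SD, n = 4), by 0.92 on the log2 scale. Mapk11 (p38 beta) fell by 1.13 at levels below 2 CPM, and lost its call in 5 of the 16 alternative settings. Map3k4, the kinase that GADD45 proteins bind and activate, had a log2 fold change of 0.01 (adjusted p = 0.974, edgeR's quasi-likelihood test). The count for this list was 3 without Bmal1+/+ replicate 1 and 3 without Bmal1+/+ replicate 3.

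Myc (ENSMUSG00000022346, chr15:61985391-61990374) was the one gene whose groups overlapped. It had 5.84, 8.32, 14.9 and 11.4 CPM in Bmal1+/+ replicates 1 to 4 and 4.87, 46.0, 20 and 9.29 CPM in the libraries labelled Bmal1-/-. Labelled replicate 1 was the lowest of all 8 libraries and labelled replicate 2 the highest, a 9.44-fold spread within 1 group. The log2 fold change of 0.98 (standard error 0.59, 95% interval -0.34 to 2.31, adjusted p = 0.237, edgeR's quasi-likelihood test) was not larger than that spread, and was 0.17 without labelled replicate 2. The interval includes changes of either sign.

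Genes that MYC is known to drive, 29 listed and 29 tested, had a median log2 fold change of -0.02, with 3 lower and 5 higher at adjusted p below 0.05, or 27.6% against 31.1% of all genes tested. Ldha, the lactate dehydrogenase of glycolysis, rose by 0.88 on the log2 scale from 375 ± 53.8 to 689 ± 156 CPM (SD, n = 4), and the DNA repair gene Apex1 rose by 0.83. Odc1, the first enzyme of polyamine synthesis, fell by 0.64 from 72.3 ± 8.11 to 46.4 ± 11.6 CPM (SD, n = 4), and the nucleolar gene Nop58 fell by 0.56. Odc1 lost its call in 3 of the 17 alternative settings, and this list had 5 calls in place of 8 without Bmal1+/+ replicate 2. Of 13 tested dimer partners and rivals of MYC, 0 were called lower and 1 higher (before adjustment 2 and 3, and with DESeq2 0 and 2), the repressor Mnt, at 0.61 (18.1 ± 4.46 against 27.6 ± 2.88 CPM, SD, n = 4). That is 7.69% against 31.1% of all genes tested. Mnt lost its call without Bmal1+/+ replicate 3 and without labelled replicate 1, and the replicate block called 3 genes of this list, 1 lower and 2 higher.

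Ordered per length by mean FPKM, the Bmal1+/+ libraries ran from Ccnd1 (27.3 ± 2.92, SD, n = 4) through Gadd45g, Gadd45b, Wee1, Gadd45a, Mdm2, Trp53 and Cdkn1a to Myc (1.20 ± 0.477). Ranges of neighbours in this order overlapped except between Gadd45a (3.34 to 8.59) and Mdm2 (1.97 to 2.63). In the libraries labelled Bmal1-/- the order was Gadd45g (63.2 ± 29.3), Cdkn1a (30.4 ± 12.5), Mdm2, Trp53, Myc, Wee1, Ccnd1, Gadd45a and Gadd45b (0.547 ± 0.380), and the ranges of neighbours parted only between Cdkn1a (20 to 48.5) and Mdm2 (2.80 to 3.33). Cdkn1a thus moved from the eighth place to the second, and Ccnd1 from the first to the seventh. The FPKM values are scaled to library totals and carry no TMM factor.

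Within a group the genes also differed in how evenly they were held. Among the libraries labelled Bmal1-/- the coefficient of variation of CPM was 6.36% for Trp53, 7.71% for Mdm2 and 12.9% for Wee1, against 68.2% for Gadd45b and 92.0% for Myc. In Bmal1+/+ libraries it ran from 9.65% for Ccnd1 to 61.5% for Gadd45g. Labelled replicate 1 held the highest Cdkn1a, Gadd45b, Wee1 and Mdm2 of its group and the lowest Gadd45a, Gadd45g and Myc. Labelled replicate 4, whose 9 acute-phase genes summed to 36991 CPM against at most 4296 CPM in the other labelled libraries, was within the range of those libraries for Ccnd1, Gadd45a, Gadd45b, Gadd45g, Mdm2 and Myc and just outside it for Wee1, Cdkn1a and Trp53. Without that library the log2 fold changes were -2.18 for Wee1 and 4.19 for Cdkn1a.

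For Wee1, Cdkn1a, Ccnd1 and the 3 GADD45 genes, the genes with the most similar profile were sought among the 10014 tested genes that averaged 5 CPM or more, by the root mean square difference of log2 of CPM plus 0.5, centred over the 8 libraries. Nearest to Wee1 were Hpgd (0.17), Alb (0.18) and Fmo1 (0.18), and nearest to Ccnd1 were Fmo2 (0.23), Serpina6 (0.32) and Gm49366 (0.36). For Cdkn1a they were Grk5 (0.52), Dtx4 (0.53) and Col5a3 (0.55). Gadd45a lay nearest to Nmrk1 (0.33), Nceh1 (0.34) and Mmd2 (0.35), Gadd45b to Gpat3 (0.49), Eci3 (0.53) and Rcan2 (0.60), and Gadd45g to Zfp422 (0.72), Cela1 (0.79) and Adgrf1 (0.79). The pseudocount narrows differences at low levels, and Gm49366 and Eci3, at 0.139 CPM or less in the libraries labelled Bmal1-/-, had fitted log2 fold changes of -8.17 and -9.03. Zfp422 had one of 0.53, below the 1.74 of Gadd45g. The same 8 libraries enter each of these distances. Profiles were centred over both groups, so the difference between the labels, which is also that of sex, enters each distance. Hpgd, Alb and Fmo1 had log2 fold changes of -2.09, -2.1 and -2.24, near the -2.27 of Wee1.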

How the data were processed

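RNA sequencing of material labelled as tumor stromal vascular fraction gave 8 libraries. They were grouped from the sample descriptions into 4 Bmal1+/+ and 4 Bmal1-/- samples, with replicate numbers as described there. The sample title of labelled Bmal1-/- replicate 4 carries a number above 4, so title and replicate number differ for that library. Alignment to GRCm38 by the authors used HISAT2 and fragment counting StringTie, and the deposited counts are whole numbers without normalization. Per the labels, the submitters' processing notes name TopHat2 2.0.6 and CASAVA 1.8 instead. The authors also deposited FPKM values, used here only to compare levels between genes. In 100% of 11442 genes with at least 20 counts in every library they equalled counts over library total and 1 length per gene, within 1%.

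The main test was edgeR's quasi-likelihood test (edgeR 4.0.16 under R 4.3.3) after filterByExpr and TMM, at a prior count of 0.125. P-values were adjusted over 14353 genes. Normalized CPM used TMM library sizes. Standard errors are the log2 fold change over the square root of F, and 95% intervals use the test's degrees of freedom. GENCODE M21 (GRCm38) gave symbols for 99.4% of identifiers. Libraries with the same label differed beyond sampling noise (chi-square per degree of freedom at least 19.97). Alternatives were DESeq2 1.42.0, limma-voom (limma 3.58.1), the likelihood ratio test, 2 other normalizations, 2 other filters, a prior count of 2, a pseudocount of 2 CPM for the ratios, the replicate block and leaving out each library. Permutation tests used scipy 1.17.1, and figures matplotlib 3.10.9.

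The 9 genes and all gene lists were chosen with earlier results of these data known. Named list genes are the 2 lowest and 2 highest fold changes among those called in each list, and similar genes are the 3 nearest profiles of each gene called (those of Trp53 are not reported here). Other genes were named after their values were seen.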

Additional observations from a re-analysis of the deposited data

Results flagged for a closer look

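A library was singled out where its gap to the nearest other library of its group was a larger share of the group's range than Dixon's 95% limit. This was tested in 86 groups of 4, where chance gives about 1 in 20, and 7 were found, none of them among the 9 checkpoint genes. Labelled Bmal1-/- replicate 1 was highest for Ccna2 (1.25 CPM against 0.678 to 0.762 CPM in the others) and Ciart (4.18 CPM against 0.783 to 1.15 CPM), and lowest for Mapk11 (0.312 CPM against 0.882 to 0.925 CPM). Labelled replicate 4 was highest in the sum of macrophage markers (317 CPM against 155 to 179 CPM) and of acute-phase genes (36991 CPM against 2224 to 4296 CPM). Bmal1+/+ replicate 2 was highest in the sum of immediate early genes (751 CPM against 434 to 487 CPM). Bmal1+/+ replicate 4 was highest for Npas2 (0.223 CPM against 0.12 to 0.134 CPM), at counts between 2 and 4.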

How the results depend on the processing

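Wee1, Cdkn1a, Ccnd1, Gadd45a and Gadd45b kept their direction and their adjusted p below 0.05 in all 17 alternative settings (16 for Gadd45b, which dropped out where each sample had to hold 10 counts), and Myc and Mdm2 stayed above 0.05 in all 17. The calls of 2 genes depended on the setting. Gadd45g was not called when low counts were kept (1.75, adjusted p = 0.0732), and had log2 fold changes between 1.37 and 2.01 with a library left out. Trp53 was not called when low counts were kept (0.48, adjusted p = 0.0534) or with the replicate block (0.49, adjusted p = 0.0626), and lay between 0.37 and 0.61 with a library left out. The number of the 9 genes called was between 5 and 7, that of 148 tested pathway genes between 38 and 49 (46 in the fit reported) and that of all genes between 3599 and 4832. Higher calls outnumbered lower ones over all genes only with library size as the scaling (2177 lower, 2282 higher). Of 403 values of the 24 named list genes, 375 stayed on their side of the threshold and 28, in 5 genes, did not, and 0 changed sign. With a library left out, the smallest exact p for 4 against 3 is 0.0571, so the ratio tests could not pass 0.05. Their differences then lay between 5.34 and 7 for Gadd45g to Gadd45b and between 3.33 and 4.90 for Gadd45g to Gadd45a.

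Replicate numbers did not pair the samples, since the deviations of same-numbered libraries from their group means correlated between -0.0642 and 0.063, and 2 of 8 libraries correlated best with their own number. The replicate block gave 3873 calls over all genes, in place of 4457, and 6 of the 9 genes. Counts of 4 to 40 for Gadd45b in the libraries labelled Bmal1-/- limit the precision of its fold change.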
